A study of Mus musculus with 9 samples.

Results

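The genes described here encode chaperones and folding enzymes of the endoplasmic reticulum (ER), its translocation and degradation machinery, and factors of the unfolded protein response. The set was a list of 35 gene symbols chosen by function, with earlier results of these data known. For each gene the probe set of highest mean across the 9 arrays was used. Of the 35, 34 were measured among the 22180 genes with a probe set of 1 gene. The probe set of Pdia4, a disulfide isomerase, was shared with Mir704, so Pdia4 was not analysed here. Expression was measured in N1E-115 cells, a mouse neuroblastoma line that extends neurites when serum is withdrawn and laminin is offered. The 9 arrays fell into 3 groups of 3, one that received Hmgn5 siRNA (24 h) and a pair that received control siRNA (24 h and 4 h), the times being labelled as differentiation time. In all groups cells were transfected with 80 nM of an siRNA smartpool, starved overnight in Neurobasal medium and replated on laminin at 10 μg/ml. Hmgn5, the knockdown target, is a nucleosome-binding protein, and the series concerns its part in neurite outgrowth. Untransfected cells, cells before replating and Hmgn5 siRNA cells at 4 h were not analysed here, so the siRNA comparison was made at 24 h only and time was compared in control cells. All samples came from 1 cell line, and no label states that the samples of a group were separate cultures. The p-values therefore rest on a spread between samples that may be technical.

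The ER imports secretory and membrane proteins through the Sec61 translocon, folds them with chaperones such as Hspa5 (BiP) and the lectins Calr and Canx, and joins their disulfide bonds with the protein disulfide isomerases. Proteins that fail to fold are sent back to the cytosol for degradation (ERAD). When unfolded proteins accumulate, the sensors Ern1 (IRE1), Atf6 and PERK start the unfolded protein response, in which spliced Xbp1 and cleaved Atf6 raise transcription of chaperone and ERAD genes. In neurons and neuroblastoma cells this machinery carries the load of membrane and secretory proteins that growing processes require.

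Many of these genes share a short promoter element, so their promoters are shown before their values. The ER stress response element (ERSE) pairs CCAAT, a site for the factor NF-Y, with CCACG, a site for Atf6 or Xbp1, with 9 bases between them. It was originally defined from promoters of chaperone genes such as Hspa5 and Calr, so its presence in them is not independent of the list. A RefSeq promoter window (build GRCm38.p6), from 250 bases before to 50 bases after the annotated start, was at hand for 29 of the 35 genes, and 3 motifs were searched on both strands. An exact ERSE occurred in 9 of the 29 genes (31.0%), against 37 of all 27025 genes with a window (0.137%). Hsp90b1 held 2 copies. The matches are printed on the strand on which they read as the motif, with its fixed letters in capitals and the 9 spacer bases in lower case.
Calr, chr8:84847075-84847093, 162 bases before the start, on the opposite strand: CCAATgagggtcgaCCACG
Canx, chr11:50325800-50325818, 145 bases before the start, on the strand of the gene: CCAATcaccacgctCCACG
Creld2, chr15:88819520-88819538, 126 bases before the start, on the opposite strand: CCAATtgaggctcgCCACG
Derl3, chr10:75893242-75893260, 156 bases before the start, on the opposite strand: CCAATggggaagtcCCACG
Dnajc3, chr14:118937827-118937845, 105 bases before the start, on the strand of the gene: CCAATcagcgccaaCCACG
Hsp90b1, chr10:86705533-86705551, 107 bases before the start, on the opposite strand: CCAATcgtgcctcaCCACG
Hsp90b1, chr10:86705638-86705656, 212 bases before the start, on the strand of the gene: CCAATcgcaaggagCCACG
Hspa5, chr2:34772025-34772043, 65 bases before the start, on the strand of the gene: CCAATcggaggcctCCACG
Pdia6, chr12:17266491-17266509, 98 bases before the start, on the strand of the gene: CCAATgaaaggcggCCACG
Syvn1, chr19:6046532-6046550, 44 bases before the start, on the strand of the gene: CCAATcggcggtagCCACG
The shorter ERSE-II, which is ATTGG, 1 base of any kind and CCACG, occurred in Dnajb11 and Herpud1, against 0.0444% of all genes.
Dnajb11, chr16:22857852-22857862, 8 bases after the start, on the strand of the gene: ATTGGcCCACG
Herpud1, chr8:94386377-94386387, 52 bases before the start, on the strand of the gene: ATTGGgCCACG
The core of the Xbp1 element, TGACGTGG, occurred in Sec24d, against 0.714% of all genes. No match of these 3 motifs overlapped another in these promoters.
Sec24d, chr3:123267470-123267477, 26 bases before the start, on the strand of the gene: TGACGTGG

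Any of the 3 motifs was found in 12 of the 29 genes with a window (41.4%), against 0.884% of all genes. The 250 bases before the start are shown for 4 genes that fell between 4 h and 24 h and held a match, with the match in capitals.
Hspa5 promoter, chr2:34771840-34772089, plus strand: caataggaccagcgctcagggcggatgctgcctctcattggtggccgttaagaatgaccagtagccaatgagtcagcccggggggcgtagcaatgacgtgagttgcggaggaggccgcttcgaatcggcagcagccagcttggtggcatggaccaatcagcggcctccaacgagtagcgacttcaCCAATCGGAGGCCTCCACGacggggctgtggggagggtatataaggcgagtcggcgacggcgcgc
Dnajc3 promoter, chr14:118937682-118937931, plus strand: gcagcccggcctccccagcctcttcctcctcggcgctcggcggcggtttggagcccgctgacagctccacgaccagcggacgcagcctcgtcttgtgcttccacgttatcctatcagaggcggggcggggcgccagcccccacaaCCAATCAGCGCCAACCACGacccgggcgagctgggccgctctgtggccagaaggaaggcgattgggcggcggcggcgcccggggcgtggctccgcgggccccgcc
Herpud1 promoter, chr8:94386179-94386428, plus strand: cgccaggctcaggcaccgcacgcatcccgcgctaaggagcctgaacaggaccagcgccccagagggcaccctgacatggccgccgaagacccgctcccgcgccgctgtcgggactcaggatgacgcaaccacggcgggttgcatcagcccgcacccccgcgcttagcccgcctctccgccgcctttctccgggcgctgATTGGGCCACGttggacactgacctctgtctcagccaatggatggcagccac
Sec24d promoter, chr3:123267246-123267495, plus strand: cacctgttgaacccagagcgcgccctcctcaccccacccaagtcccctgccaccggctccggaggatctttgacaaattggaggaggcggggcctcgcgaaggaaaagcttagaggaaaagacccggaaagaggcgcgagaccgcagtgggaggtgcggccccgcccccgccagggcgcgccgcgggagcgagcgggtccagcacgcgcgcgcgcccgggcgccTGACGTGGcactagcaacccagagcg
An exact match is a description of the letters and does not show that a factor binds there.

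Hmgn5 itself read 3.53, 3.45 and 3.50 with Hmgn5 siRNA, against 4.77, 4.66 and 4.69 with control siRNA at 24 h, in log2 units of the deposited RMA values. Its signal was 43.1% of the control level, a log2 difference of -1.21 (SE 0.09; limma adjusted p = 0.00367; exact two-sided permutation p = 0.1, the smallest that 3 arrays against 3 can give). The adjusted p was 0.0558 without control 24 h replicate 1, 0.0552 without Hmgn5 siRNA replicate 2 and 0.0506 without Hmgn5 siRNA replicate 3. Both levels lie below the median of every array (5.16 to 5.30), and whether the probe set was above background was not tested, so these are values of the signal. Throughout, a gene is said to have risen or fallen when its Benjamini-Hochberg adjusted p in limma, over 22180 genes, was under 0.05. Control 4 h replicate 2 stood apart from the other arrays: its limma array weight was 0.198, where the others lay between 0.789 and 1.74. It was the lowest of the 4 h arrays for 26 of the 34 ER genes (76.5%), against 36.3% of all genes. Some of the counts and medians that involve the 4 h group are therefore also given without it. The others rest on all 3 arrays at 4 h. Markers of the sympathetic neuroblastoma lineage were present, with means over the 9 arrays of 8.53 to 12.0 for the 9 of 12 measured. Their mean over the list was 10.67 to 10.75 on the 24 h arrays and 10.22 to 10.53 on the 4 h arrays, where control 4 h replicate 2 was the lowest. Of the 9, 2 rose over time in control cells (background 2.17%) and 0 fell. These were Th and Dbh, enzymes of catecholamine synthesis (limma adjusted p = 0.0188 for Th and 0.00534 for Dbh, and 0.0363 and 0.00306 without control 4 h replicate 2). The only difference below 0 was that of Hand2, at -0.15 and not called. Without control 4 h replicate 2, 3 of the 9 rose (Th, Dbh and Chga) and 3 differences were below 0. The part of these marker differences in the results below was not tested. The 19 measured markers of glia, fibroblasts, leukocytes and endothelium had means of 3.41 to 7.30, and 0 of them were called in any comparison. The means of these 4 lists lay between 4.53 and 5.46 on every array. In RNA of whole cultures, fewer cells of a kind and less RNA per cell cannot be told apart. For 12 of the 34 genes (35.3%, against 53.3% of all genes) at least 2 arrays held exactly the same deposited value. P4hb and Hyou1 were identical on all 3 Hmgn5 siRNA arrays, so an SD of 0 there is a property of the deposited values.

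Between 4 h and 24 h in control cells, 10 of the 34 ER genes fell and 0 rose. That is 29.4% of the genes, where 2.17% of all 22180 genes fell and 4.34% changed in either direction. The list was chosen with earlier results of these data known, so its shares are a description and not an independent test. The genes that fell were the chaperones and co-chaperones Dnajb9, Manf, Hspa5 and Dnajc3, the ERAD genes Herpud1 and Edem1, the transcription factors Atf6 and Xbp1, the COPII adaptor Sec24d and the ER membrane protein Wfs1. Their levels at 24 h were between 63.3% and 82.0% of those at 4 h. The difference was below 0 for 29 of the 34 genes, against 45.1% of all genes, and its median was -0.20 on the log2 scale, against 0.02 over all genes. All 3 arrays at 24 h lay below all 3 at 4 h for 16 genes (background 9.98%), and above them for 1 gene, Os9 (background 11.3%).

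**Figure D1:**
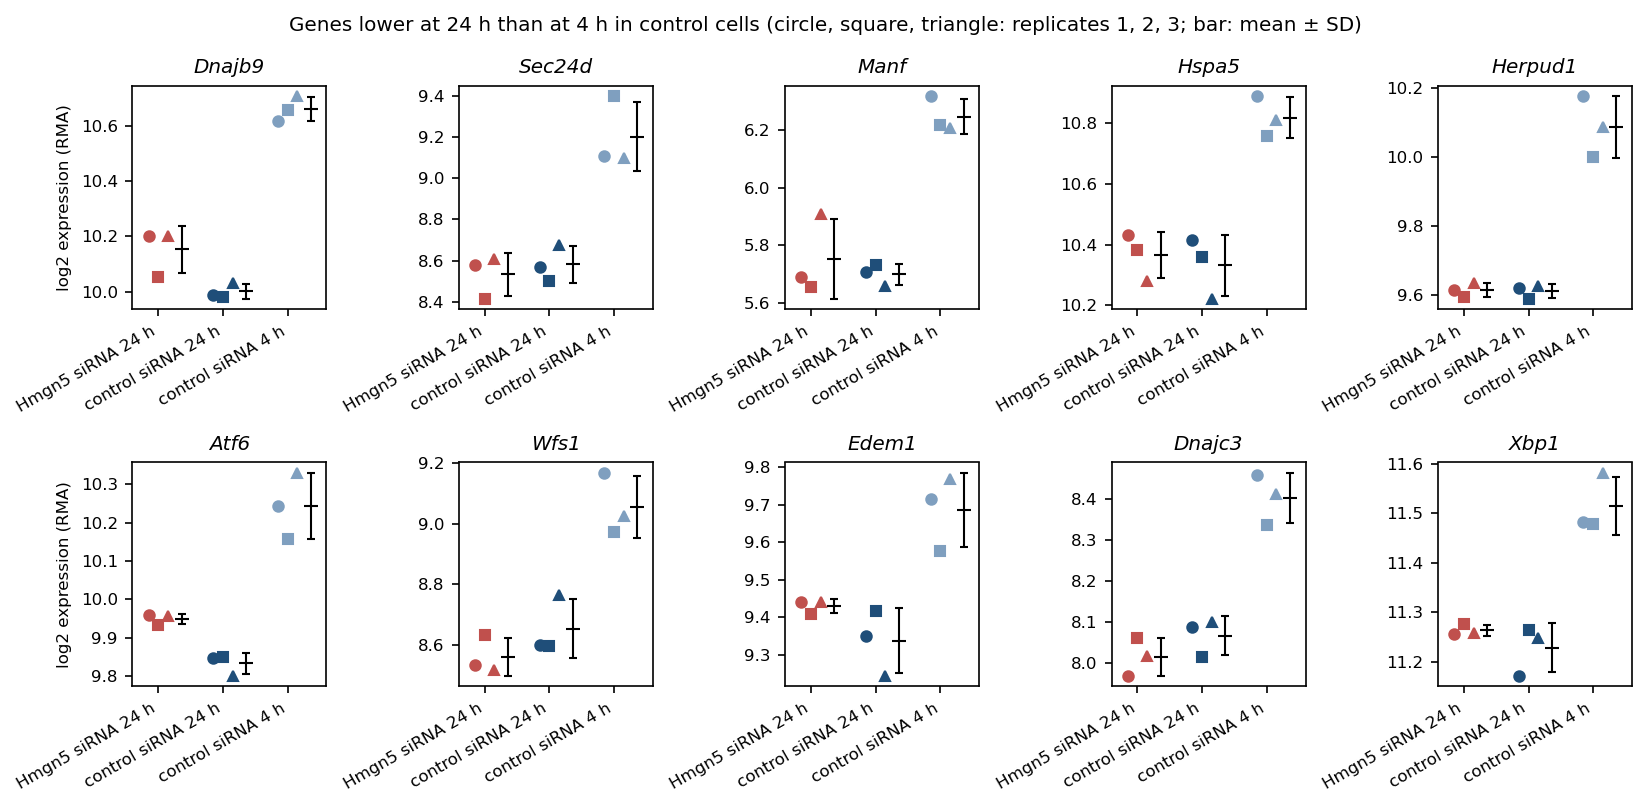
Log2 expression (RMA, y axis) of the 10 ER genes that fell over time, on the 3 arrays of each group (x axis; circle, square and triangle for replicates 1, 2 and 3), with the mean ± SD beside them. All control siRNA arrays at 24 h lie below all those at 4 h in every panel, and all Hmgn5 siRNA arrays at 24 h lie below the 4 h arrays as well.

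Among the chaperones, Dnajb9 (ERdj4), a co-chaperone of BiP, showed the largest fall of the 34 genes. It read 10.20, 10.05 and 10.20 with Hmgn5 siRNA at 24 h, 9.99, 9.98 and 10.03 with control siRNA at 24 h, and 10.62, 10.66 and 10.71 with control siRNA at 4 h. Every 24 h array, with either siRNA, lay below every 4 h array. Dnajb9 fell in control cells to 63.3% of its 4 h level (log2 difference -0.66, SE 0.06, adjusted p = 0.000927).

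Hspa5, which encodes BiP, the main HSP70 of the ER and the brake on the stress sensors, had 10.43, 10.38 and 10.28 with Hmgn5 siRNA at 24 h, 10.42, 10.36 and 10.22 with control siRNA at 24 h, and 10.89, 10.76 and 10.81 with control siRNA at 4 h. The 6 arrays at 24 h were again all below the 3 at 4 h. Its fall in control cells was to 71.4% of the 4 h level (10.33 ± 0.10 at 24 h and 10.82 ± 0.07 at 4 h, SD, n = 3 each; log2 difference -0.49, SE 0.07, limma adjusted p = 0.00828). The exact ERSE match in its promoter, printed above, begins 65 bases before the annotated start. Inexact copies of the element were not searched for.

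Manf, a small ER-resident protein that is also secreted as a neurotrophic factor, read 5.69, 5.65 and 5.91 with Hmgn5 siRNA at 24 h, 5.71, 5.73 and 5.66 with control siRNA at 24 h, and 6.32, 6.22 and 6.21 with control siRNA at 4 h. One Hmgn5 siRNA array, replicate 3, was above the other 24 h arrays and still below all 4 h arrays. Manf fell, with a signal of 68.4% (log2 difference -0.55, SE 0.08, adjusted p = 0.00617). Its levels are little above the array medians of 5.16 to 5.30, and whether they were above background was not tested. Dnajc3 (p58IPK), another BiP co-chaperone, read 7.97, 8.06 and 8.02 with Hmgn5 siRNA at 24 h, 8.09, 8.01 and 8.10 with control siRNA at 24 h, and 8.46, 8.34 and 8.41 with control siRNA at 4 h. The groups of 24 h arrays overlapped each other and neither overlapped the 4 h arrays. Dnajc3 fell to 79.2% (log2 difference -0.34, SE 0.06, adjusted p = 0.0165). Its adjusted p was 0.0570 without control 24 h replicate 1, 0.0673 without control 24 h replicate 2 and 0.0509 without control 4 h replicate 3.

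The other 6 of the 10 chaperones and co-factors did not pass the threshold. Creld2, an ER-resident protein induced by ER stress, came nearest, with 9.47, 9.52 and 9.52 in control cells at 24 h, against 10.17, 9.63 and 10.07 at 4 h (log2 difference -0.45, adjusted p = 0.0709). Its arrays did not overlap between the times, and control 4 h replicate 2 was close to the 24 h arrays. Hsp90b1 (GRP94), the HSP90 of the ER, differed by -0.17 (adjusted p = 0.118), also with no overlap between 11.61, 11.62 and 11.59 at 24 h and 11.76, 11.76 and 11.80 at 4 h. Sdf2l1, a BiP co-factor, differed by -0.22, Hyou1, a nucleotide exchange factor of BiP, by -0.20, the HSP70 family member Hspa13 by -0.10 and Dnajb11 (ERdj3) by -0.09 (adjusted p between 0.297 and 0.608).

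Neither lectin chaperone passed: Calr (calreticulin) differed by -0.13 (adjusted p = 0.404) and Canx (calnexin) by 0.03 (adjusted p = 0.866). Of the 4 disulfide isomerases measured, Pdia6 differed by -0.17, Pdia5 by -0.13, Pdia3 by -0.04 and P4hb by 0.02, with adjusted p between 0.449 and 0.941. The median was -0.09 over the 4 isomerases and -0.28 over the 10 chaperones and co-factors.

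Of the 8 ERAD genes, 2 fell. Herpud1, a membrane protein that gathers ERAD components, read 9.61, 9.59 and 9.64 with Hmgn5 siRNA at 24 h, 9.62, 9.59 and 9.63 with control siRNA at 24 h, and 10.18, 10.00 and 10.09 with control siRNA at 4 h. The 24 h arrays of both siRNAs spanned the same narrow range, below all 4 h arrays. Herpud1 fell to 71.9% of its 4 h level (log2 difference -0.48, SE 0.06, adjusted p = 0.00418). Edem1, which routes glycoproteins to degradation, read 9.44, 9.41 and 9.44 with Hmgn5 siRNA at 24 h, 9.35, 9.42 and 9.25 with control siRNA at 24 h, and 9.72, 9.58 and 9.77 with control siRNA at 4 h. All 24 h arrays lay below the 4 h arrays. Edem1 fell to 78.6% (log2 difference -0.35, SE 0.07, adjusted p = 0.0256), a call lost without any 1 of the control 24 h arrays, without control 4 h replicate 1 or 3, or without Hmgn5 siRNA replicate 1 (adjusted p up to 0.0929). The call was also lost with the replicate number as a block (0.0526), with only the 2 groups compared (0.0926) and with median centring (0.0853). It was lost too with the mean of its 2 probe sets (log2 difference -0.17, adjusted p = 0.186). Over the 9 arrays the unused probe set had a mean of 4.05, below every array median (5.16 to 5.30), and the one used had 9.49. Whether the unused probe set was above background was not tested.

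The remaining ERAD genes did not pass. Sel1l and Syvn1 (HRD1), the core of the main ERAD ubiquitin ligase, both differed by -0.25 (adjusted p = 0.159 for Sel1l and 0.0652 for Syvn1). The derlins, membrane proteins of the export channel, differed by -0.21 for Derl1, -0.15 for Derl2 and -0.07 for Derl3 (adjusted p between 0.134 and 0.600). Derl3 read 4.93 to 5.12 over the 9 arrays, below every array median (5.16 to 5.30), and whether it was above background was not tested. Os9, a lectin that hands glycoproteins to the same ligase, ran the other way, with 9.97, 9.93 and 9.96 in control cells at 24 h, against 9.65, 9.09 and 9.76 at 4 h. Its arrays did not overlap between the times, and control 4 h replicate 2 was far below the others. The difference of 0.46 did not pass (adjusted p = 0.118).

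Among the sensors and factors, Atf6, the membrane-bound precursor of a transcription factor, read 9.96, 9.93 and 9.96 with Hmgn5 siRNA at 24 h, 9.85, 9.85 and 9.80 with control siRNA at 24 h, and 10.24, 10.16 and 10.33 with control siRNA at 4 h. The 3 groups did not overlap, with the Hmgn5 siRNA arrays between the others. Atf6 fell in control cells to 75.2% (log2 difference -0.41, SE 0.06, adjusted p = 0.0079). Xbp1, whose mRNA is spliced by Ern1, read 11.26, 11.28 and 11.26 with Hmgn5 siRNA at 24 h, 11.17, 11.26 and 11.25 with control siRNA at 24 h, and 11.48, 11.48 and 11.58 with control siRNA at 4 h. All 24 h arrays were below the 4 h arrays. Xbp1 fell to 82.0% (log2 difference -0.29, SE 0.06, adjusted p = 0.0252), and was not called without any 1 of the control 24 h arrays, without control 4 h replicate 3 or without Hmgn5 siRNA replicate 1 (adjusted p up to 0.0972). The probe set gives 1 value for the gene, so spliced and unspliced Xbp1 were not told apart. Ern1 (IRE1) differed by 0.01 (adjusted p = 0.962).

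No gene of the translocon passed. Sec61a1, the pore subunit, differed by -0.20, Ssr1, a subunit of the translocon-associated complex, by -0.20, and the small subunits Sec61g by -0.15 and Sec61b by 0.16 (adjusted p between 0.158 and 0.538). Sec24d, which selects cargo for COPII vesicles leaving the ER, read 8.58, 8.41 and 8.61 with Hmgn5 siRNA at 24 h, 8.57, 8.50 and 8.67 with control siRNA at 24 h, and 9.11, 9.40 and 9.10 with control siRNA at 4 h. Every 24 h array was below every 4 h array, and control 4 h replicate 2 was the highest. Sec24d fell to 65.0% (log2 difference -0.62, SE 0.10, adjusted p = 0.00893).

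Wfs1 (wolframin), an ER membrane protein affected in Wolfram syndrome, read 8.53, 8.63 and 8.52 with Hmgn5 siRNA at 24 h, 8.60, 8.60 and 8.77 with control siRNA at 24 h, and 9.17, 8.97 and 9.03 with control siRNA at 4 h. The 24 h arrays lay below all 4 h arrays. Wfs1 fell to 75.7% (log2 difference -0.40, SE 0.08, adjusted p = 0.0204), a call lost without 4 of the arrays, which were control 24 h replicates 1 and 2 and control 4 h replicates 1 and 3 (adjusted p then up to 0.0838). Ufm1, a ubiquitin-like modifier that acts on ribosomes at the ER, differed by -0.03 (adjusted p = 0.876). The falls of Dnajb9, Sec24d, Manf, Hspa5, Herpud1 and Atf6 stayed below an adjusted p of 0.05 whichever array was left out and under the other 8 alternatives. With only the 2 groups compared, the calls of Dnajc3, Xbp1 and Wfs1 were lost (adjusted p = 0.0614, 0.0872 and 0.0732), and with each array centred on its median they were lost too (0.0627, 0.0869 and 0.0548).

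Promoter matches occurred among genes that fell and among genes that did not pass. Of the 8 genes that fell and had a window, 4 held a match (Hspa5, Dnajc3, Herpud1 and Sec24d, whose promoters are printed above), and 4 held none (Dnajb9, Xbp1, Edem1 and Wfs1). Of the 20 measured genes that did not pass and had a window, 8 held a match. The median difference over time was -0.17 for the 9 genes with an ERSE, 8 of them below 0, and -0.15 for the 19 measured genes with a window and no ERSE, 15 of them below 0. Without control 4 h replicate 2 the medians were -0.28 for the genes with an ERSE, 9 of 9 below 0 and 6 called as falls, and -0.19 for those without, 16 of 19 below 0 and 8 called as falls. The 9 genes with an ERSE include Derl3, whose level was below every array median. These values are a description, and no test was run on them.

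Control 4 h replicate 2 carried much of the spread at 4 h. On that array the mean ER gene was 0.12 above the control 24 h mean on the log2 scale, against 0.26 and 0.25 on 4 h replicates 1 and 3. The 10 genes that fell averaged 0.48, 0.42 and 0.47 above it on 4 h replicates 1, 2 and 3, and the other 24 averaged 0.17, -0.01 and 0.16. The 10 were called from these same arrays, and agreement among the 4 h arrays favours a call. The contrast between the 10 and the other 24 therefore follows in part from that choice. For 28 genes the other 4 h arrays were both above all control 24 h arrays, and for 12 of these replicate 2 was not above the highest of them, among them Calr, Pdia6, Hyou1, Sdf2l1, Sel1l and Sec61a1. Without replicate 2, 18 ER genes fell and 1 rose, with 2.94% of all genes falling and 5.58% called. All 10 genes named above kept their call, and 8 were added: Creld2 at -0.61 (limma adjusted p = 0.0021), Sel1l at -0.36 (0.0120), Hyou1 at -0.35 (0.0101), Sdf2l1 at -0.35 (0.0218), Pdia6 at -0.30 (0.0351), Sec61a1 at -0.30 (0.0125), Syvn1 at -0.28 (0.0383) and Calr at -0.22 (0.0456). Os9 rose by 0.25 (adjusted p = 0.0342). The median over the 34 genes was then -0.27, against 0.02 over all genes. That fit rests on 2 arrays at 4 h, and whether the array or the cells of that sample differed was not tested.

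**Figure D2:**
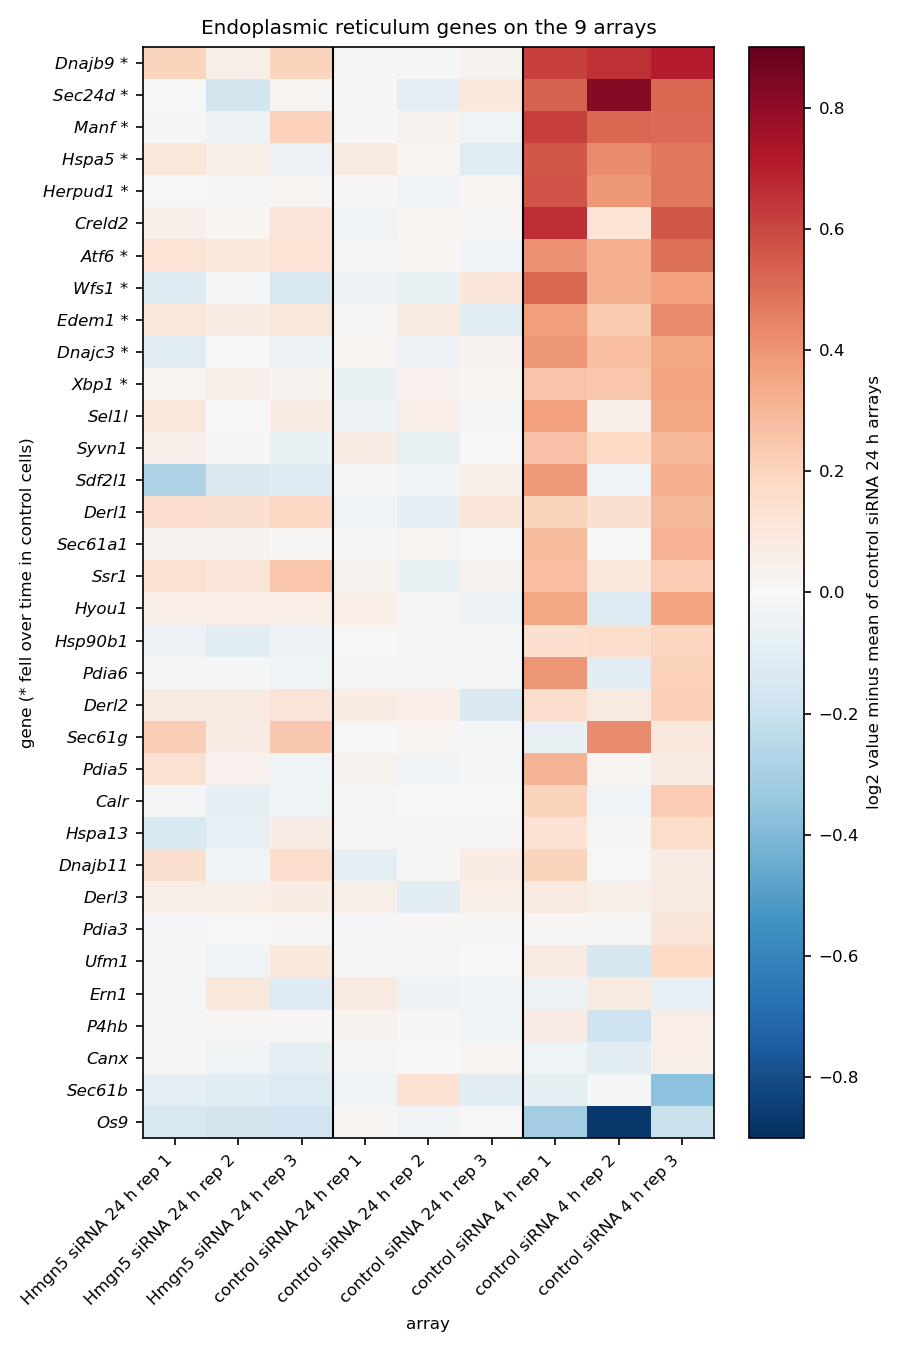
Log2 value of each of the 34 ER genes (rows, ordered by their difference over time) on each of the 9 arrays (columns), minus the mean of the control siRNA arrays at 24 h; red is higher and blue lower, and an asterisk marks the 10 genes that fell over time. The upper rows are red on all 3 arrays at 4 h, while in many of the middle rows control 4 h replicate 2 is paler than the other 4 h arrays.

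With Hmgn5 siRNA at 24 h, 0 of the 34 ER genes passed the threshold against control siRNA at 24 h, where 0.0135% of all genes did, 3 genes in number (0.00902% rose and 0.00451% fell). The differences lay between -0.17 and 0.18 on the log2 scale, with a median of 0.03, against -0.0019 over all genes, and 13 of the 34 were below 0 (background 50.8%). An unadjusted p under 0.05 was seen for 3 genes (8.82%, background 5.25%), and no alternative setting of the 17 tried gave a call. Taken gene by gene and not adjusted for their number, the 95% intervals of the 34 differences lay between -0.48 and 0.43. They rest on 3 arrays a group and on a spread between samples that may be technical, so they are no joint bound.

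The 3 genes with the smallest p were Ssr1, Dnajb9 and Derl1. Ssr1 read 9.59, 9.57 and 9.71 with Hmgn5 siRNA, against 9.48, 9.40 and 9.48 with control siRNA at 24 h (log2 difference 0.17, SE 0.07, limma adjusted p = 0.926). Dnajb9, whose arrays are given above, differed by 0.15 (SE 0.06, limma adjusted p = 0.926). Derl1 read 11.60, 11.58 and 11.63 with Hmgn5 siRNA, against 11.41, 11.36 and 11.55 with control siRNA at 24 h (log2 difference 0.16, SE 0.07, limma adjusted p = 0.927). In all 3 genes the Hmgn5 siRNA arrays lay above the control arrays with no overlap.

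The arrays of the 2 siRNAs also did not overlap for Atf6, Derl2 and Sec61g, which were higher with Hmgn5 siRNA, making 6 genes (17.6%, background 6.65%). They did not overlap for Hsp90b1, Calr, Sdf2l1 and Os9, which were lower with Hmgn5 siRNA (11.8%, background 5.62%). The sizes were small: 0.12 for Atf6, 0.09 for Derl2, 0.18 for Sec61g, -0.07 for Hsp90b1, -0.05 for Calr, -0.17 for Sdf2l1 and -0.16 for Os9. For the 10 genes that fell over time, the difference with Hmgn5 siRNA lay between -0.09 and 0.15, with 95% intervals between -0.26 and 0.29. For all 10 the upper end of that interval was smaller than the size of the fall over time. The 10 were picked by a called fall on these same arrays, so this comparison of sizes was partly set by that choice. The siRNA difference and the difference over time use the same control 24 h arrays with opposite sign. Their values are therefore given side by side and are not independent.

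**Figure D3:**
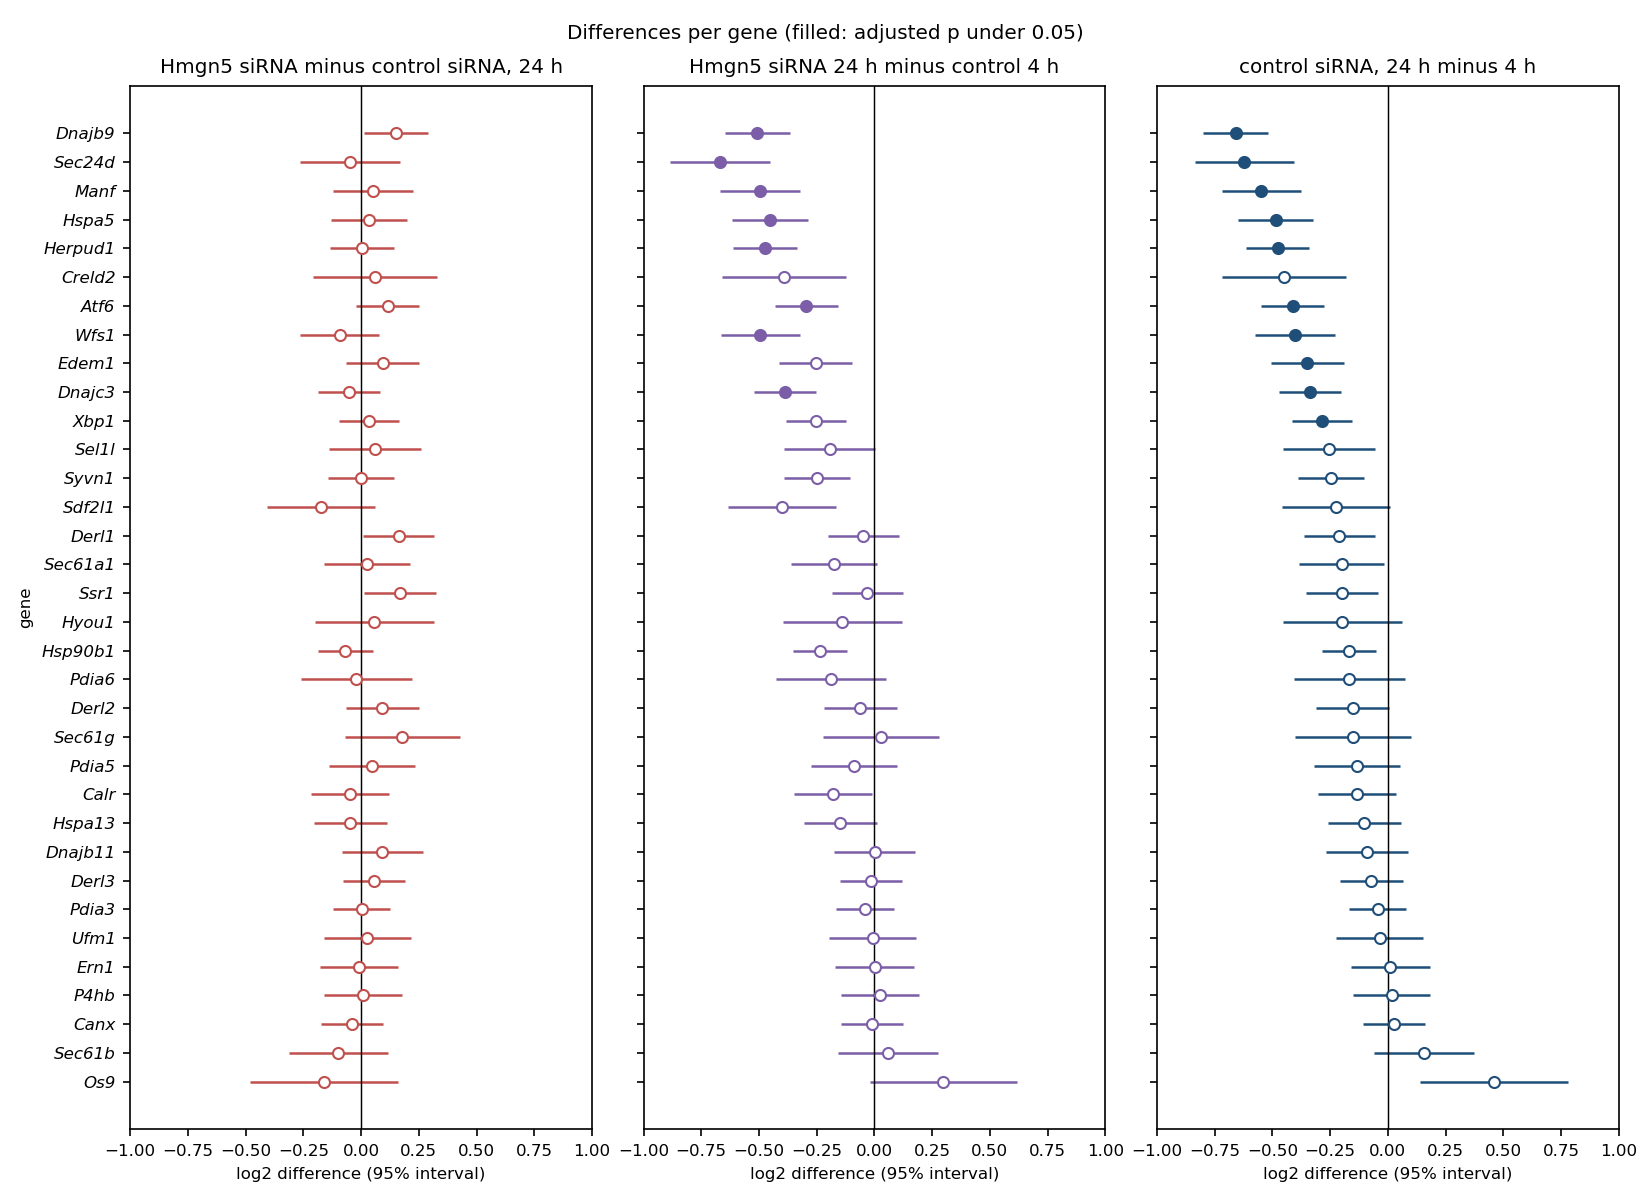
Log2 differences with 95% intervals for the 34 ER genes (rows, ordered by the difference over time) between siRNAs at 24 h (Hmgn5 minus control), between Hmgn5 siRNA cells at 24 h and control cells at 4 h, and between times in control cells (24 h minus 4 h). Filled points have an adjusted p under 0.05: 0 genes in the knockdown panel, 8 in the middle panel and 10 in the panel of time in control cells.

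Hmgn5 siRNA cells at 24 h were also set against control cells at 4 h, a comparison in which siRNA and time differ together. There 8 of the 34 genes fell (23.5%, where 1.04% of all genes fell and 2.57% were called), and 0 rose (background 1.52%). These were Sec24d (log2 difference -0.67, limma adjusted p = 0.0102), Dnajb9 (-0.51, 0.00621), Manf (-0.50, 0.013), Wfs1 (-0.49, 0.0128), Herpud1 (-0.47, 0.00712), Hspa5 (-0.45, 0.0141), Dnajc3 (-0.39, 0.0132) and Atf6 (-0.29, 0.0376). All 8 are among the 10 that fell in control cells, with which the comparison shares the 4 h arrays. Xbp1 (-0.25, adjusted p = 0.0556) and Edem1 (-0.26, adjusted p = 0.103) did not pass here. The difference between the comparisons is the knockdown difference, which was 0.04 for Xbp1 and 0.09 for Edem1 and was called for neither.

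Of these 8 calls, those of Dnajb9, Herpud1 and Sec24d held whichever array was left out. With only the 2 groups compared, Dnajb9 and Herpud1 were called, and Sec24d (adjusted p = 0.0543), Hspa5 (0.0535), Wfs1 (0.0525), Dnajc3 (0.0601), Manf (0.0696) and Atf6 (0.116) were not. Hspa5 was not called without Hmgn5 siRNA replicate 2 or 3 (adjusted p up to 0.0611), Manf without Hmgn5 siRNA replicate 1 or 2 (up to 0.0617), Wfs1 without Hmgn5 siRNA replicate 1 or 3 (up to 0.0609) and Dnajc3 without Hmgn5 siRNA replicate 1 (0.0621). Among the fits that left out an array, Atf6 was called only without control 4 h replicate 2 (adjusted p up to 0.133 in the others). Groups did not overlap, with Hmgn5 siRNA at 24 h lower, for 14 genes (background 8.59%) and higher for 1, Os9 (background 10.3%). The median over the 34 genes was -0.18, against 0.01 over all genes, and 28 were below 0 (background 48.1%). Without control 4 h replicate 2, 19 genes fell, where 1.53% of all genes fell. The 8 calls were kept and Hsp90b1, Calr, Pdia6, Sdf2l1, Creld2, Hyou1, Xbp1, Syvn1, Sel1l, Edem1 and Sec61a1 were added, with adjusted p between 0.0048 and 0.0489.

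The rest of the ER pathways was counted in the same way. Of 153 further ER genes in 6 lists, 144 were measured. Over time in control cells 3 rose and 11 fell, where 2.17% of all genes rose and 2.17% fell. Their median difference was -0.01, against -0.20 for the 34 genes above and 0.02 for all genes. Without control 4 h replicate 2, 3 rose (2.08%, background 2.64%) and 14 fell (9.72%, background 2.94%). Of the 14 calls made with all arrays, 13 were kept (Ero1a was lost), and the median was -0.04. In both fits the share that rose was near the background. With Hmgn5 siRNA at 24 h, 0 of the 144 were called and the median was 0.02.

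Among 15 other sensors and transcription factors, 3 fell over time. Ddit3 (CHOP), a factor induced late in the unfolded protein response, read 9.87, 9.84 and 9.93 with Hmgn5 siRNA at 24 h, 9.63, 9.49 and 9.44 with control siRNA at 24 h, and 10.05, 10.25 and 10.00 with control siRNA at 4 h. The 3 groups did not overlap, and the Hmgn5 siRNA arrays lay between the others. Ddit3 fell in control cells by 0.58 on the log2 scale (adjusted p = 0.00603), and its difference of 0.36 with Hmgn5 siRNA did not pass (limma adjusted p = 0.461). Atf4, the factor made when PERK slows translation, fell by 0.28 (adjusted p = 0.044), and Creb3, an ER-bound factor related to Atf6, fell by 0.45 (adjusted p = 0.0373).

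In the list of 36 translocation and N-glycosylation genes, Gnpnat1, an enzyme that makes the sugar donor for glycosylation, fell by 1.10 over time (adjusted p = 0.00382). It read 8.59, 8.28 and 8.69 with Hmgn5 siRNA at 24 h, 8.22, 8.02 and 7.90 with control siRNA at 24 h, and 8.97, 9.39 and 9.08 with control siRNA at 4 h. As with Ddit3, the Hmgn5 siRNA arrays lay between the other groups, and the knockdown difference of 0.47 did not pass (adjusted p = 0.761). Ostc, a subunit of the oligosaccharyltransferase, fell by 0.28 (adjusted p = 0.0332), while Dad1, another subunit, rose by 0.27 (adjusted p = 0.048). Of 26 genes of ER export, the COPII coat genes Sec24a and Sec23a fell by 0.58 and 0.26 (adjusted p = 0.00711 and 0.041), and Kdelr3, a receptor that returns chaperones to the ER, fell by 0.34 (adjusted p = 0.0216).

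Of 31 other folding genes, Ero1a, the oxidase that recharges disulfide isomerases, fell by 0.33 (adjusted p = 0.0401) and the prolyl isomerase Fkbp14 rose by 0.48 (adjusted p = 0.0477). Of 24 other ERAD genes, Edem3 fell by 0.34 (adjusted p = 0.0159) and the ubiquitin ligase Rnf5 rose by 0.62 (adjusted p = 0.0333). Among 12 genes of UFMylation and ER-phagy, Ufl1, the ligase for Ufm1, fell by 0.34 (adjusted p = 0.0312).

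Of these 14 calls, those of Ddit3, Gnpnat1 and Sec24a held whichever array was left out. The other 11 were lost without any 1 of the 3 control 24 h arrays, and for each of them the adjusted p reached a value between 0.0665 and 0.155. In Hmgn5 siRNA cells at 24 h against control cells at 4 h, 0 of the 144 rose (background 1.52%) and 6 fell (background 1.04%): Edem3, Gnpnat1, Sec23a, Sec24a, Kdelr3 and Ufl1. Without control 4 h replicate 2, 1 rose (0.694%, background 2.01%) and 7 fell (4.86%, background 1.53%). Of the 6 calls, 5 were kept (Gnpnat1 was lost). Each of these 6 was lost when at least 1 Hmgn5 siRNA array was left out, with the adjusted p reaching 0.0629 to 0.153, and none was called without Hmgn5 siRNA replicate 2.

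**Figure D4:**
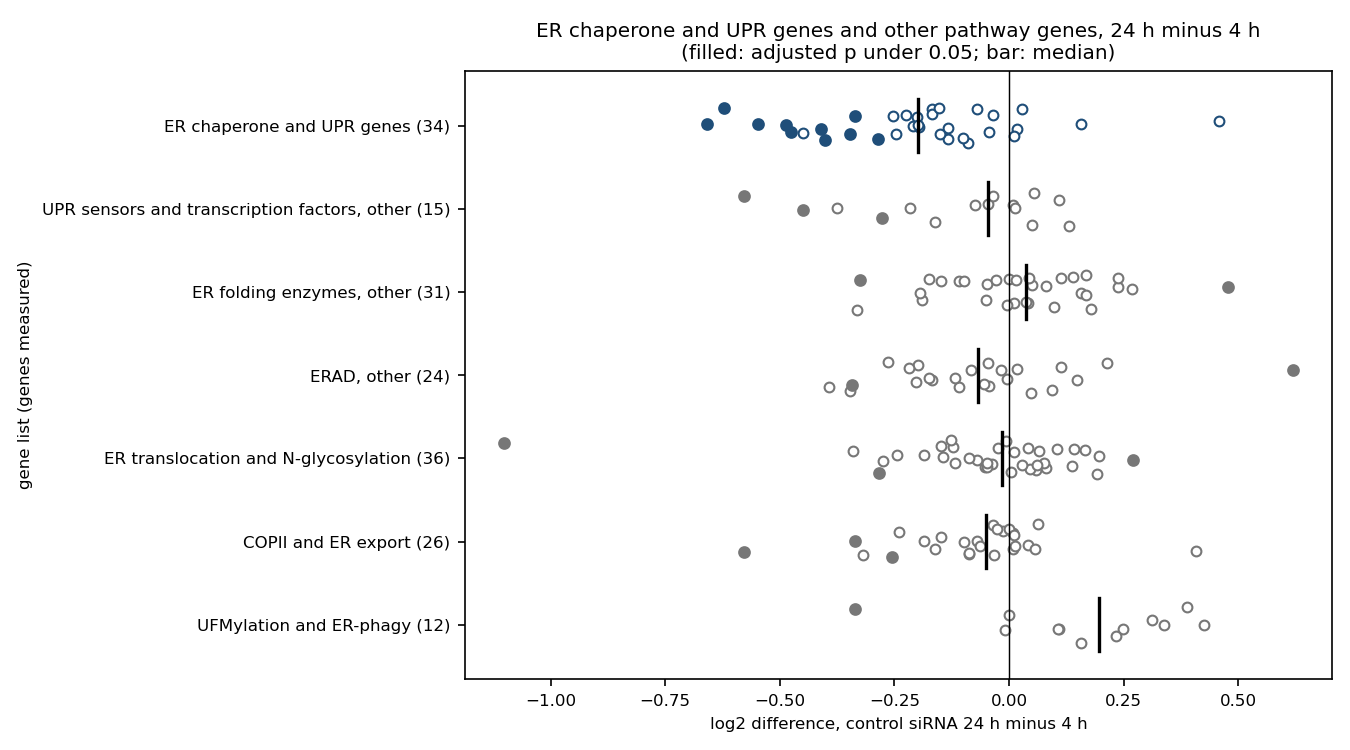
Log2 difference of control siRNA at 24 h minus 4 h (x axis) for each measured gene of the ER chaperone and unfolded protein response set and of 6 lists of other ER genes (rows, with the number measured). Filled points have an adjusted p under 0.05 and bars are medians, at -0.20 for the top row and between -0.07 and 0.20 for the other lists.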

How the data were processed

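Total RNA was amplified, converted to sense-strand cDNA and labelled for Affymetrix whole-transcript arrays, per the labels' protocols. The values the authors deposited are on a log2 scale, 1 per probe set, made with oligo and RMA per the submitters' processing notes. Their versions, and the genome build of the array annotation, are not given in the sources used here. RMA equalizes the distributions of the arrays, which hides any shift common to most genes. The table held 41345 probe sets. Of these, 23521 had 1 gene symbol in the platform annotation, 1814 several and 16010 none; only the first kind was used. Values lay between 2.13 and 13.9 and array medians between 5.16 and 5.30. Across probe sets, r between arrays was 0.978 to 0.995, and at least 0.991 without control 4 h replicate 2. No 2 arrays were identical. The number of arrays limits the precision.

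Groups came from the sample titles. limma 3.58.1 in R 4.3.3 fitted group means to all 9 arrays (lmFit, eBayes; 6 residual and 3.55 prior degrees of freedom), with Benjamini-Hochberg adjustment over 22180 genes. The steps were tested on simulated data. The text names all members, Hmgn5, and up to 3 genes with the smallest p among those called over time in each list of other ER genes. Per-array values are given for each member called in a comparison and for the 3 with the smallest p at knockdown; other per-array values and genes were added after values were seen. The members and lists were chosen with earlier results of these data known. Promoter sequences are from RefSeq (GRCm38.p6), whose gene table was used otherwise for names only. Alternatives were a replicate block, a fit of the compared groups only, a trend and robust prior, array weights, removal of the dimmest genes, median centring, cyclic loess, averaging all probe sets of a gene, and leaving out each array.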

Additional observations from a re-analysis of the deposited data

How the results depend on the processing

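Each result was recomputed under 17 alternatives. The count of ER genes called over time in control cells, 10 with the settings reported, was 6 with only the 2 groups compared, 6 with each array centred on its median, 18 with array weights, and 6 to 19 when each array in turn was left out. For Hmgn5 siRNA at 24 h against control siRNA at 4 h the count of 8 became 2 with only the 2 groups, 17 with array weights and 4 to 19 with an array left out. For the other ER pathway genes, the 14 calls over time became 3 with only the 2 groups, 7 with median centring and 3 to 17 with an array left out. Their 6 calls for Hmgn5 siRNA at 24 h against control at 4 h became 0 with only the 2 groups, 12 with array weights, 10 with the dimmest genes removed and 0 to 8 with an array left out. The Hmgn5 difference ranged from -1.24 to -1.18 with an array left out and its call was lost in 3 of those fits. No ER gene was called between Hmgn5 siRNA and control siRNA at 24 h under any of the 17. For Hmgn5, the ER genes called in a comparison and the 3 with the smallest p at knockdown, no direction was reversed. Some differences near 0 changed sign in other ER genes. Without control 4 h replicate 2, the difference over time was -0.01 for Canx (0.03 with all arrays) and -0.07 for P4hb (0.02). Array weights give control 4 h replicate 2 a low weight and a fit of 2 groups has fewer arrays; the causes were otherwise not tested. The labels do not say whether replicate numbers pair the samples, and the fit reported did not pair them. Same-numbered arrays correlated at 0.0085 to 0.285 in their deviations from the group means, over 0.1 in 2 of 9 pairs. Differently numbered arrays correlated at -0.221 to 0.081, and every array's best match had its own number. The deviations thus tended to follow the replicate number, weakly in most pairs, which the fit reported ignores. The source of this shared structure was not tested. With the replicate number as a block, 9 ER genes were called over time (Edem1 was lost), 7 for Hmgn5 siRNA at 24 h against control at 4 h (Atf6 was lost) and 0 for the knockdown. Median centring moved the median of all genes over time to 0.06, against 0.02 as deposited.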

Other observations

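The 12 measured genes of UFMylation and ER-phagy, chosen for mention after their values were seen, lay on the other side of 0 from the ER chaperones over time. In control cells at 24 h against 4 h, 2 of the 12 were below 0 and the median difference was 0.20, while 45.1% of all genes were below 0. Without control 4 h replicate 2, which stood apart, 2 of the 12 were again below 0 and the median was 0.12. Ufl1 was the only one of the 12 called, and it fell. With Hmgn5 siRNA against control siRNA at 24 h, all 12 differences were below 0, with a median of -0.06 and a background of 50.8% of genes. They included the ER-phagy receptors Retreg1 at -0.16 (SE 0.09, limma adjusted p = 0.979) and Calcoco1 at -0.16 (SE 0.14, limma adjusted p = 0.99). Others lay nearer 0, such as Tex264, with a mean of 8.895 with Hmgn5 siRNA and 8.903 with control siRNA at 24 h. Of the 12, 0 were called. The control 24 h arrays enter both comparisons with opposite sign, so the values are not independent. For Hmgn5 siRNA at 24 h against control siRNA at 4 h, 3 of the 12 were below 0 (background 48.1%), with a median of 0.15. Without control 4 h replicate 2, 5 of the 12 were below 0 there (41.7%, background 46.5%), with a median of 0.04.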
